A study of Mus musculus with 6 samples.

Results

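The genes described here are the 4 Notch receptors of the mouse (*Notch1*, *Notch2*, *Notch3* and *Notch4*), the Delta-like ligand genes *Dll1*, *Dll3* and *Dll4*, the Jagged ligand genes *Jag1* and *Jag2*, and *Dner*, a Delta-like and Notch-like transmembrane gene of neurons. They were taken by gene symbol. All 10 were found among 34745 genes, and 9 reached the level needed for testing, 0.5 FPKM in at least 3 libraries. *Notch4* did not. FPKM scales fragments by transcript length and by library depth, so levels can be set side by side between genes.

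The libraries were made from mouse cerebral cortex taken on postnatal day 8. The 3 control samples carried Pen-2 F/F, that is, both *Psenen* alleles floxed and no Cre, and the 3 Pen-2 cKO samples carried Pen-2 F/F together with hGFAP-Cre. PEN-2, the product of *Psenen*, is a subunit of γ-secretase. The human GFAP promoter of this transgene is active in radial glia, so neurons and glia that descend from them can carry the deletion, while vessels, meninges and microglia arise elsewhere. The transgene and the deletion occur together in the cKO group, so their effects cannot be told apart. The labels number the samples but do not say that each is a separate mouse, so p-values reflect only the variation among these libraries, which may be technical.

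Notch signalling runs between touching cells. A Delta or Jagged ligand on one cell pulls on a Notch receptor on its neighbour, ADAM10 then cuts the receptor outside the membrane, and γ-secretase cuts it within the membrane. The freed intracellular part joins RBPJ and MAML proteins and switches on genes such as *Hes5*, whose products repress proneural genes and, with them, the Delta ligands of the same cell. In the developing forebrain this keeps radial glia undifferentiated and restrains oligodendrocyte differentiation, and in vessels it guides endothelial and mural cells.

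Among the receptors and ligands, the cKO cortex had more *Dll3* and *Dll1* and less *Notch3*. *Dll3* rose 3.51-fold, *Dll1* rose 1.48-fold and *Notch3* fell 1.71-fold (limma, adjusted p under 0.05). The other 6 tested genes, among them *Notch1* and the most abundant ligands *Jag2* and *Dner*, did not pass. Thus 2 of the 9 tested genes rose, beside 3.67% of all 14147 tested genes, and 1 fell, beside 1.87%. In either direction the background was 5.53%. The median log2 fold change of the 9 genes was 0.01, beside 0.07 over all tested genes.

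The promoter windows of *Dll3*, *Dll1*, *Jag1* and *Notch3* are printed because these are the tested members whose libraries did not overlap between the groups. Sequences are from RefSeq (GRCm38.p6, the assembly of mm10), 250 bases before to 50 bases after the start, on the strand of the gene, and all 10 members matched. Capitals mark 2 motifs: CAGCTG, an E-box, the kind of site bound by basic helix-loop-helix factors, and CACGNG or its reverse complement CNCGTG, letters that include known HES binding sites. A further motif, TGGGAA or its reverse complement TTCCCA, the core of the RBPJ site, was searched on both strands too. *Dll3* is at chr7:28301736-28302035, the upstream of the *Dll1* starts at chr17:15376883-15377182, *Jag1* at chr2:137116471-137116770 and *Notch3* at chr17:32166841-32167140, each on the minus strand.
Dll3: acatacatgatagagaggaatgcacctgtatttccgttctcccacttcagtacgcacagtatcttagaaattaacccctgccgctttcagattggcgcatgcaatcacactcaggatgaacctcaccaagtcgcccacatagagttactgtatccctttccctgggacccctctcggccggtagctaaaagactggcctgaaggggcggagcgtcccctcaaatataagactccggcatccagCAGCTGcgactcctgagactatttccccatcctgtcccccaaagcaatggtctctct
Dll1: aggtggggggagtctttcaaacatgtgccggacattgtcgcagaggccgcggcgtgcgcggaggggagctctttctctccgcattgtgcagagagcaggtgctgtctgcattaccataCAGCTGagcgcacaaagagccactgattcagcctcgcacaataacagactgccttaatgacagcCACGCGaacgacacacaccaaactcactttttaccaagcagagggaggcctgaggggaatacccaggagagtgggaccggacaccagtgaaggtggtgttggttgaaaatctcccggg
Jag1: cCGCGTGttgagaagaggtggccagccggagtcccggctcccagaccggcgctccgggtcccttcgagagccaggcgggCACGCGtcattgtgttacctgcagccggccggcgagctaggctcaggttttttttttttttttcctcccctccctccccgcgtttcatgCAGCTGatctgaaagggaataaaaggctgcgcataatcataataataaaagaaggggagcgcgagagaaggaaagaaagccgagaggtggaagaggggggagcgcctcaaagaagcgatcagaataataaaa
Notch3: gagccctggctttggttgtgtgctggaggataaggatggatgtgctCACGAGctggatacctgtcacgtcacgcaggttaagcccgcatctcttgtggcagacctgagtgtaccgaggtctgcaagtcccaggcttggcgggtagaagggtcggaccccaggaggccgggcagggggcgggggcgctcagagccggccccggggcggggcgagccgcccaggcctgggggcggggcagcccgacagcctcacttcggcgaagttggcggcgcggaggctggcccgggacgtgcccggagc

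The E-box was found in 3 of the 11 member promoters (*Dll1* has 2 starts), those of *Dll3*, *Dll1* and *Jag1*, and in 16.3% of the 32851 promoters of the same length. In *Dll3* it spans positions -7 to -2 from the start, in the printed *Dll1* window -132 to -127 and in *Jag1* -82 to -77. The other *Dll1* start, which is not printed, lacks the E-box. CACGNG was found in 8 of the 11 promoters, and in 27.5% of all promoters. *Jag1* holds it at 2 positions, *Notch3* at -204 to -199 and the printed *Dll1* promoter at -68 to -63, while that of *Dll3* lacks it. The RBPJ core letters were in none of the 11 windows, and in 25.6% of all promoters. The motifs overlapped in none of the 4 printed windows. The member windows were 52.0% to 86.0% G and C, and the background promoters were not matched for this. The shares therefore do not measure enrichment. These are matches of letters, and binding was not measured.

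**Figure D1:**
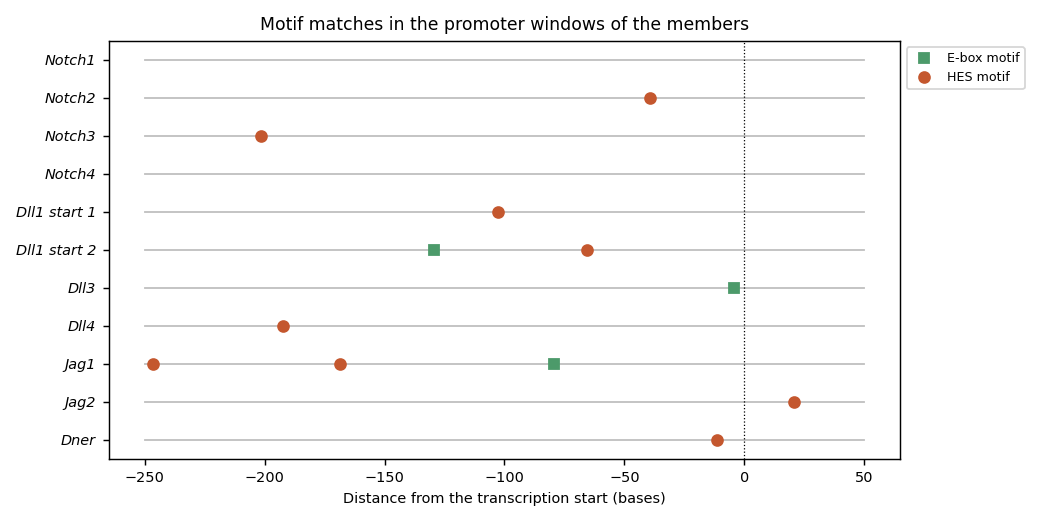
Positions of motif matches in the promoter windows of the 10 genes (x axis: distance from the transcription start in bases; 1 line per start; squares: E-box; circles: HES motif). E-box matches lie in the windows of *Dll3*, *Jag1* and the upstream *Dll1* start, and no RBPJ motif was matched in these 11 windows.

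A few facts of the libraries bear on what follows. The smallest steps between FPKM values implied 20251900 to 26809300 fragments per library. *Psenen* was 6.35 to 7.32 FPKM in the control libraries and 3.56 to 4.03 FPKM in the cKO libraries, so the targeted gene was lower in every library labelled cKO. All 6 cortex markers, among them *Slc17a7*, *Neurod6* and *Tbr1*, were detected, with summed levels of 326 to 391 FPKM in control and 284 to 365 FPKM in cKO libraries. Calls over all genes were 519 higher and 264 lower as deposited, 312 and 346 with median-ratio scaling, 319 and 339 with upper-quartile scaling and 909 and 244 with equal sums. One cKO library, replicate 3, stood apart: its summed astrocyte markers were 144 FPKM against 81.4 and 90.8 FPKM in the others, and its summed choroid plexus and ependyma markers 896 FPKM against 332 and 189 FPKM. That choroid plexus and ependyma sum also varied among the controls, at 38.6 to 186 FPKM. Most of it was *Ttr*, at 877 FPKM in cKO replicate 3. In bulk tissue, fewer cells of a type and less RNA per cell cannot be told apart.

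*Notch3* was the only receptor gene that passed the test. NOTCH3 is the receptor of mural cells, the pericytes and smooth muscle of vessels, and is also made by neural progenitors and astrocytes. *Notch3* (ENSMUSG00000038146, mm10 chromosome 17, 32120820 to 32166880, minus strand) was 4.82, 4.66 and 4.67 FPKM in the controls against 2.79, 2.40 and 2.97 FPKM in the cKO libraries. The control libraries lay close together, and every cKO library was below them. Group means (± SD, n = 3) were 4.71 ± 0.0890 FPKM and 2.72 ± 0.292 FPKM, and *Notch3* fell by 0.78 on the log2 scale (SE 0.11, adjusted p = 0.00919 by limma). Without Control replicate 2 the adjusted p was 0.0539. Between 506 and 939 fragments stood behind each value, taking the 8089 exonic bases of the gene as its length, which is approximate for a gene with several transcripts.

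Marker lists of the cells that make *Notch3* differed in their counts. Of 12 astrocyte markers 8 fell and 1 rose (6 to 9 fell with 1 library left out), and their summed level was 241 to 314 FPKM in control and 81.4 to 144 FPKM in cKO libraries. Of 10 tested mural markers 2 rose and none fell (1 with median-ratio or upper-quartile scaling, none without Control replicate 1 or 2). The summed level of all 11 listed mural markers was 55.7 to 61.7 FPKM in control and 72.4 to 75.7 FPKM in cKO libraries. Of 7 tested radial glia and progenitor markers 3 fell and none rose (2 to 4 fell with 1 library left out), and the summed level of that list was 328 to 332 FPKM in control and 99.4 to 133 FPKM in cKO libraries. Most of that sum was *Fabp7*, at 283 ± 1.40 FPKM in control and 71.8 ± 10.2 FPKM in cKO libraries. *Fabp7* and *Hes5*, which both fell, are also counted below among the downstream and feedback genes. *Sox2* (15.9 ± 0.140 and 19.3 ± 5.47 FPKM) and *Vim* (5.83 ± 2.60 and 7.04 ± 1.97 FPKM) did not pass. In this list 5 markers, with 1 untested marker among them, were lower in every cKO library and 1 was higher. Over tested genes alone these shares were 8.17% and 21.5%. No marker of these 3 lists was at 0 in all libraries. Their part in the fall of *Notch3* was not tested. An annotated antisense gene, *Gm17276*, overlaps *Notch3* over 21024 bases at a mean of 0.634 FPKM in control and 0.431 FPKM in cKO libraries. Whether the counting used strand is not given in the sources used here, so reads of the pair may not be separated.

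*Notch2* split the cKO libraries. NOTCH2 is a receptor of radial glia, astrocytes and other cells. The gene (ENSMUSG00000027878, chromosome 3, 98013527 to 98150361) was 2.35, 2.39 and 2.66 FPKM in control against 1.40, 1.33 and 2.60 FPKM in cKO libraries. The first and second cKO libraries lay below all controls, while the third lay among them. The log2 difference was -0.51 (SE 0.24, limma adjusted p = 0.262), with a 95% confidence interval of -1.08 to 0.06. With cKO replicate 3 left out, whose astrocyte and choroid plexus sums were above those of the other cKO libraries, it was -0.80 with an adjusted p of 0.0227. The part of those cells in the *Notch2* value was not tested.

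*Notch1*, the receptor with the widest known role in neural progenitors, kept similar levels. It (ENSMUSG00000026923, chromosome 2, 26457903 to 26516663) was 3.28, 3.04 and 2.99 FPKM in control against 3.03, 3.46 and 3.86 FPKM in cKO libraries. The groups overlap, and the log2 difference of 0.14 (limma adjusted p = 0.522) has a 95% confidence interval of -0.13 to 0.42. *Notch4* (ENSMUSG00000015468, chromosome 17, 34564268 to 34588503), a receptor largely of endothelium, was the lowest of the 10 genes. It was 0.440, 0.397 and 0.373 FPKM in control against 0.460, 0.578 and 0.615 FPKM in cKO libraries, from roughly 65 to 133 fragments. Every cKO library was above the controls, but the gene was too low for the test, and fitted with no filter on low values it did not pass (log2 difference 0.37, limma adjusted p = 0.397).

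The make-up of the receptor transcripts differed accordingly. Summed over the 4 receptor genes, the level was 10.9, 10.5 and 10.7 FPKM in control against 7.69, 7.76 and 10.0387 FPKM in cKO libraries. *Notch3* made up 44.3%, 44.4% and 43.6% of that sum in control libraries and 36.3%, 30.9% and 29.6% in cKO libraries. *Notch1* made up 28.0% to 30.1% in control and 38.5% to 44.5% in cKO libraries, so that it replaced *Notch3* as the most abundant receptor transcript in each cKO library. The share of *Notch2* overlapped between the groups, at 21.6% to 24.9% and 17.2% to 25.9%.

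**Figure D2:**
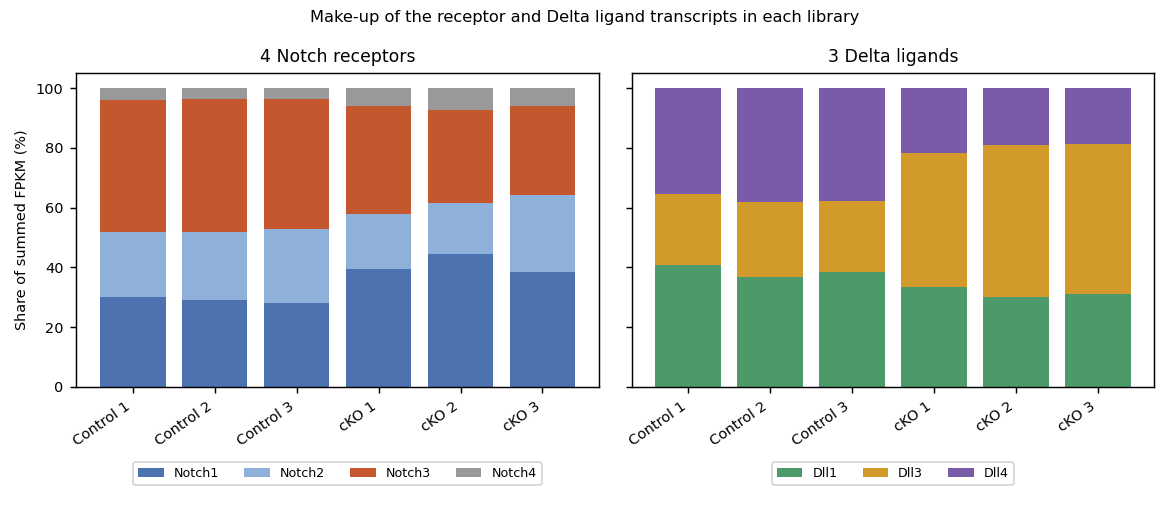
Share of the summed FPKM (y axis, %) held by each of the 4 receptor genes (left) and each of the 3 Delta ligand genes (right) in each library (x axis). *Notch3* holds 43.6% to 44.4% of the receptor sum in control and 29.6% to 36.3% in cKO libraries, and *Dll3* holds 23.5% to 25.2% of the Delta sum in control and 45.1% to 50.9% in cKO libraries.

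Of the 3 Delta ligand genes, *Dll3* and *Dll1* rose and *Dll4* did not pass. DLL3 differs from other Delta ligands in that it does not activate Notch on neighbouring cells and acts against Notch within the cell that makes it. *Dll3* (ENSMUSG00000003436, chromosome 7, 28293553 to 28302238, minus strand) was 1.22, 1.15 and 1.01 FPKM in control against 3.67, 4.46 and 4.47 FPKM in cKO libraries. Every cKO library was far above every control, and the groups did not overlap. Group means were 1.12 ± 0.107 FPKM and 4.20 ± 0.459 FPKM. *Dll3* thus rose by 1.81 on the log2 scale (SE 0.13, adjusted p = 0.000851 by limma), and that call held in all 16 alternatives run, with adjusted p from 0.000736 to 0.00808. Roughly 66 to 342 fragments stood behind each value.

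*Dll1* rose less, and its call was close to the threshold. DLL1 is the ligand that activates Notch between neural progenitors and their neighbours. The gene (ENSMUSG00000014773, chromosome 17, 15367354 to 15376872, minus strand) was 2.09, 1.67 and 1.65 FPKM in control against 2.72, 2.64 and 2.76 FPKM in cKO libraries. The cKO libraries lay close together and above every control. Group means were 1.80 ± 0.247 FPKM and 2.71 ± 0.0645 FPKM, a rise of 0.57 on the log2 scale (SE 0.13, adjusted p = 0.0483 by limma). That call ended with median-ratio and upper-quartile scaling (limma adjusted p = 0.0635 for each), with no filter on low values (0.0798) and with the replicate number as a block. The *Dll1* call also ended without Control replicates 2 and 3 (0.159 and 0.0779) or cKO replicates 1, 2 and 3 (0.153, 0.138 and 0.106). The direction was the same in all 16 alternatives. A lincRNA gene on the opposite strand, *A930024N18Rik*, overlaps *Dll1* over 1873 bases (means of 0.851 and 0.933 FPKM in control and cKO), and reads of this pair may not be separated either.

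*Dll4*, the ligand of arterial and sprouting endothelium, did not pass. The gene (ENSMUSG00000027314, chromosome 2, 119325784 to 119335962) was 1.81, 1.73 and 1.62 FPKM in control against 1.76, 1.67 and 1.67 FPKM in cKO libraries. The groups overlap, and the 95% confidence interval of the log2 difference, -0.29 to 0.26, leaves out a change of the size seen for *Dll3*. Of 11 tested endothelial markers 1 rose (0 to 2 with 1 library left out). None was called with median-ratio or upper-quartile scaling, with no filter on low values or with no mean-variance trend. The summed level of all 14 listed endothelial markers was 59.0 to 65.5 FPKM in control and 70.6 to 75.9 FPKM in cKO libraries. Their part in the values of *Dll4*, *Notch4* and *Jag1* was not tested. Together the 3 Delta genes summed to 4.28 to 5.11 FPKM in control and 8.15 to 8.90 FPKM in cKO libraries. *Dll3* held 24.2 ± 0.892% of that sum in control and 48.7 ± 3.19% in cKO libraries, and *Dll4* 37.1 ± 1.51% and 19.8 ± 1.56% (SD, n = 3).

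Oligodendrocyte markers rose beside *Dll3* and *Dll1*. Of 7 oligodendrocyte precursor markers 5 rose (5 or 6 with 1 library left out), with a median log2 fold change of 1.13, and of 7 tested markers of committed precursors all 7 rose (6 or 7), with a median of 2.47. The summed level of the committed list was 27.8 to 35.1 FPKM in control and 117 to 155 FPKM in cKO libraries. *Olig2* and *Sox10*, transcription factors of the lineage, rose to 41.9 ± 4.62 and 37.8 ± 6.19 FPKM from 14.1 ± 1.42 and 9.53 ± 0.908 FPKM. *Gpr17*, a receptor of committed precursors, rose from 21.2 ± 1.97 to 76.4 ± 10.9572 FPKM (log2 fold change 1.84). *Bcas1* and *Enpp6*, of the same committed list, rose by 2.88 and 2.99 on the log2 scale, beside 1.81 for *Dll3*. No marker of these lists was at 0 in all libraries. The part of these cells in the rise of *Dll3* and *Dll1* was not tested.

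Of the Jagged ligands, *Jag1* was higher in every cKO library and *Jag2* differed little. JAG1 is a ligand of astrocytes, progenitors and vessels. *Jag1* (ENSMUSG00000027276, chromosome 2, 137081456 to 137116644) was 1.04, 1.03 and 0.879 FPKM in control against 1.35, 1.29 and 1.43 FPKM in cKO libraries. The groups did not overlap, as for 21.5% of all tested genes with cKO higher and for 29.7% in either direction, and *Jag1* did not pass (log2 difference 0.43, SE 0.14, limma adjusted p = 0.127, 95% confidence interval 0.10 to 0.76). Its adjusted p was 0.0567 to 0.280 over the 16 alternatives. By the same measure the groups of *Dll1*, *Dll3* and untested *Notch4* did not overlap with cKO higher, nor those of *Notch3* with cKO lower, as for 8.17% of tested genes.

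*Jag2* (ENSMUSG00000002799, chromosome 12, 112908590 to 112929495), at this age far above *Jag1* in level, was 18.1, 16.1 and 12.9 FPKM in control against 17.6, 15.4 and 14.1 FPKM in cKO libraries. The spread within each group was wider than the difference between them. The log2 difference was 0.01 (SE 0.14, limma adjusted p = 0.983), with a 95% confidence interval of -0.31 to 0.33, and its sign turned with the scaling. *Jag2* made up 71.4% to 74.7% of the summed level of the 5 Delta and Jagged genes in control and 57.7% to 65.0% in cKO libraries. These shares depend on all 5 genes, and *Jag2* itself was not called.

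*Dner* was the most abundant of the 10 genes. DNER is made by neurons and lacks the domain with which other Delta ligands bind Notch. The gene (ENSMUSG00000036766, chromosome 1, 84369839 to 84696221) was 76.9, 73.0 and 72.1 FPKM in control against 63.6, 66.4 and 75.2 FPKM in cKO libraries, from 7072 or more fragments each. As deposited, the first and second cKO libraries were below all controls and the third was among them. With median-ratio scaling (means of 75.9 and 66.7 FPKM) and upper-quartile scaling (75.8 and 66.8 FPKM) every cKO library was below every control. The log2 difference of -0.12 did not pass (SE 0.07, limma adjusted p = 0.379, 95% confidence interval -0.28 to 0.05). Beside it, the summed level of 8 neuron markers was 2143 to 2210 FPKM in control and 1804 to 1937 FPKM in cKO libraries, with 1 marker higher and 1 lower (0 to 1 each with 1 library left out). Most of that sum was *Tubb3*, a neuronal tubulin, at 1404 ± 41.7 FPKM in control and 1141 ± 45.1 FPKM in cKO libraries. It was called lower (limma adjusted p = 0.0162), except with no mean-variance trend (0.0741) and without Control replicate 1 (0.0587), Control replicate 2 (0.0761) or cKO replicate 2 (0.0747). *Gad1*, the marker called higher, rose from 14.6 ± 0.745 to 22.1 ± 3.05 FPKM (limma adjusted p = 0.0214). That call ended without Control replicate 1, Control replicate 2 or cKO replicate 2. The median log2 fold change of the neuron list was -0.05. The part of neurons in the *Dner* values was not tested.

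**Figure D3:**
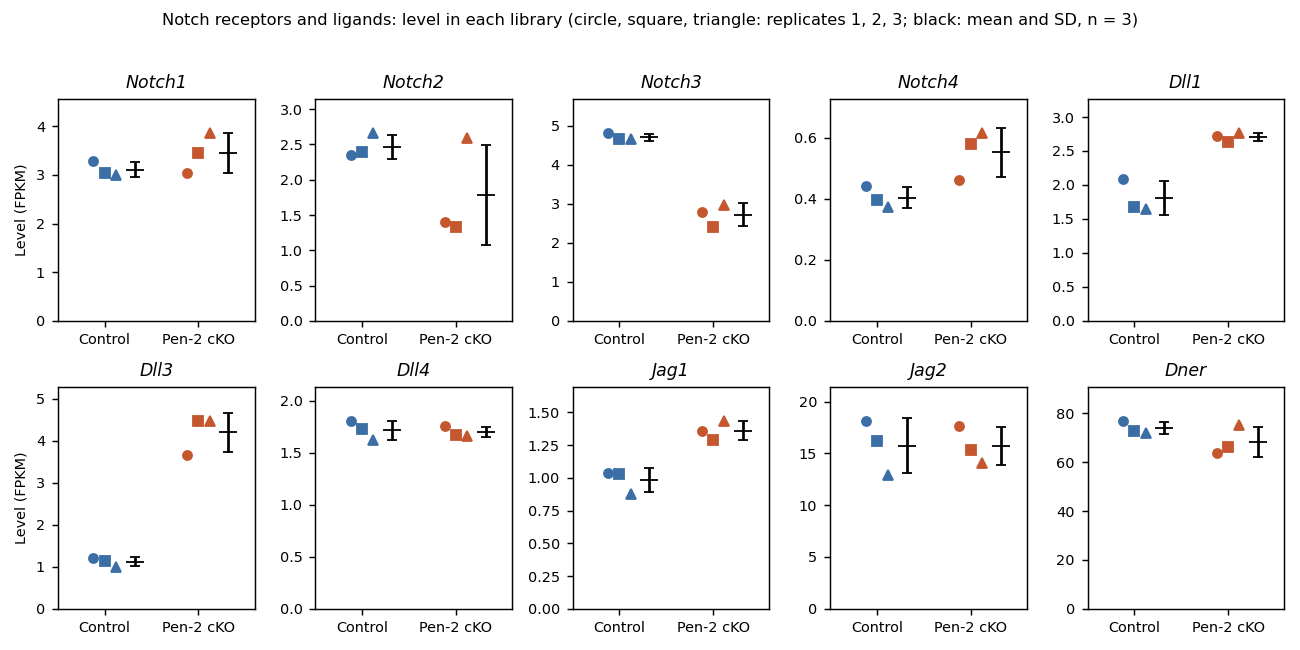
Level of each of the 10 genes (y axis, FPKM, from 0) in the 3 control and 3 Pen-2 cKO libraries (points), with the mean and SD of each group in black. The groups are apart for *Notch3*, *Notch4*, *Dll1*, *Dll3* and *Jag1*, and for *Notch2* the third cKO library, at 2.60 FPKM, lies among the controls.

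**Figure D4:**
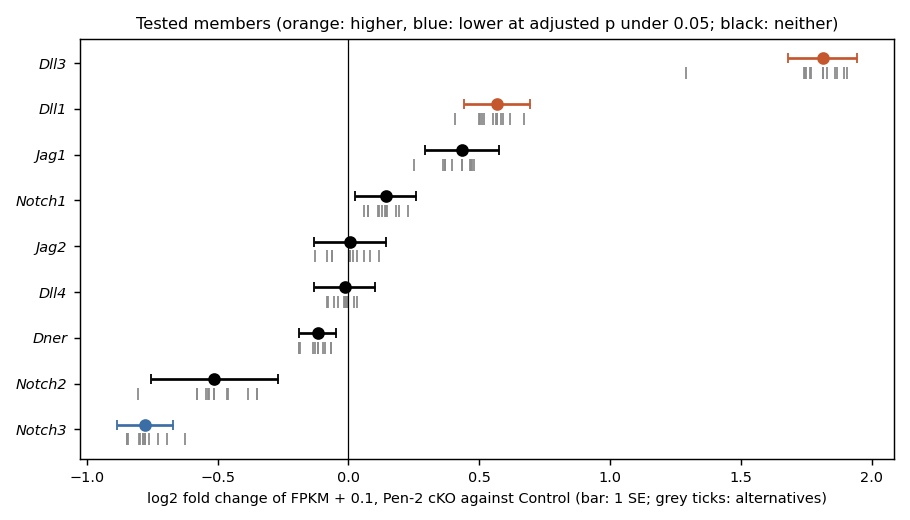
Log2 fold change of FPKM + 0.1 (x axis, Pen-2 cKO against Control) of the 9 tested genes, with 1 SE as bar, and the value under each of the 16 alternatives as grey ticks. The ticks stay to the right of 0 for *Dll3*, *Dll1*, *Jag1* and *Notch1*, to the left for *Dner*, *Notch2* and *Notch3*, and lie on both sides for *Jag2* and *Dll4*.

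The order of levels changed for *Dll3*, *Notch3* and *Notch2*, and with them for *Dll4*. In control cortex the order of means was *Dner*, *Jag2*, *Notch3*, *Notch1*, *Notch2*, *Dll1*, *Dll4*, *Dll3*, *Jag1* and *Notch4*. The libraries of neighbours in that order were apart except for *Dll1* with *Dll4* and *Dll3* with *Jag1*. In cKO cortex *Dll3* moved from rank 8 to rank 3, where its libraries overlapped those of *Notch1*, and *Notch3* moved from rank 3 to rank 5, overlapping *Dll1*. *Notch2* moved from rank 5 to rank 7, overlapping *Dll4*, which moved from rank 7 to rank 8.

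Genes were ranked by how closely their mean-centred log2 values over the 6 libraries followed each called member, among 12669 other genes. For *Notch3* these were *Gpam*, *Fads2* and *Csrp1*, with root mean square differences of 0.06, 0.07 and 0.07 and log2 fold changes of -0.80, -0.74 and -0.77. For *Dll1* they were *Smim11*, *Zscan26* and *Jak3*, at 0.05, 0.06 and 0.06. For *Dll3* they were *Dusp9*, *Mybl1* and *Stk32a*, at 0.14 for each, with log2 fold changes of 1.93, 1.74 and 1.68. The likeness over 6 libraries includes the difference between the groups and is given as a description.

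**Figure D5:**
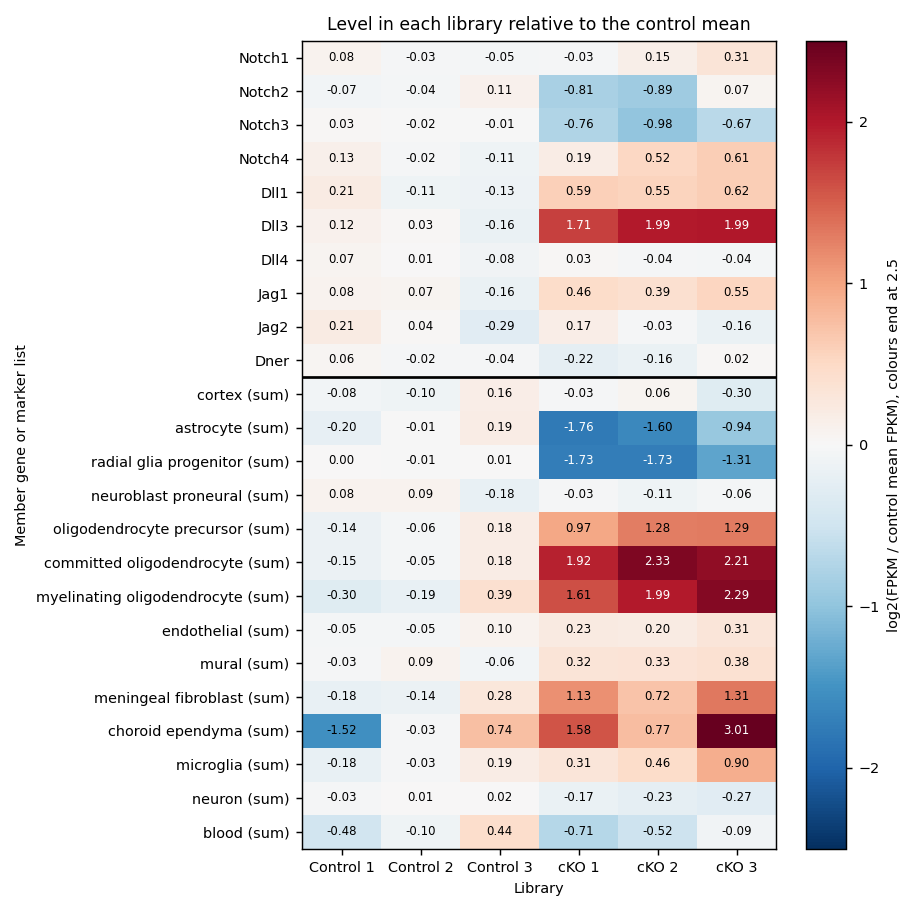
Level of each of the 10 genes and summed level of each marker list in each library, as log2 of the FPKM over the control mean (colour and printed value; rows: genes above the line, marker lists below; columns: libraries). *Dll3* is at 1.71, 1.99 and 1.99 in the cKO libraries beside 1.92, 2.33 and 2.21 for the committed oligodendrocyte sum, and *Notch2* at -0.81, -0.89 and 0.07 beside -1.76, -1.60 and -0.94 for the astrocyte sum.

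The rest of the pathway was read from lists of 56 other genes, of which 54 were tested. Of these, 6 fell and 1 rose (5 to 7 fell and 0 to 2 rose with 1 library left out), beside the 1.87% and 3.67% of all tested genes given above. The 6 include *Psenen*, the gene deleted by design. Among 14 downstream and feedback genes 4 fell and none rose. This list also holds *Rbpj* and *Maml* genes, whose products join the freed receptor part. In it 7 genes were lower in every cKO library and 2 were higher, beside 8.17% and 21.5% of all tested genes. *Hes1*, *Hey1*, *Hey2* and *Heyl* did not pass (limma adjusted p = 0.125, 0.289, 0.250 and 0.560). *Hes5*, a repressor switched on by Notch, fell 5.45-fold, from 10.4, 9.10 and 7.88 FPKM to 1.42, 1.46 and 1.91 FPKM. *Nrarp*, which dampens Notch signalling, fell from 12.2 ± 0.666 to 3.37 ± 0.524 FPKM, and *Fabp7*, a lipid-binding protein of radial glia and astrocytes, from 283 ± 1.40 to 71.8 ± 10.2 FPKM. *Sox9*, a glial transcription factor, fell from 3.73 ± 0.197 to 1.31 ± 0.554 FPKM, and its call ended without Control replicates 1, 2 and 3 (limma adjusted p = 0.0675, 0.0843 and 0.0509) or cKO replicate 1 (0.0702). *Id3* did not pass (16.7 ± 0.802 and 11.2 ± 2.70 FPKM) except without cKO replicate 3 (limma adjusted p = 0.00278), and *Hes6* was 7.81 ± 0.833 and 8.97 ± 0.407 FPKM. *Hes5*, *Fabp7* and *Sox9* are also made by astrocytes and radial glia, whose part was not tested.

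Enzymes that act on the receptors split by gene. The sugar-adding Fringe enzymes tune which ligand a receptor answers to. *Lfng* fell from 8.05 ± 0.600 to 3.49 ± 0.746 FPKM (log2 fold change -1.20, limma adjusted p = 0.00611). *Mfng* rose from 2.07 ± 0.152 to 3.15 ± 0.0266 FPKM (log2 fold change 0.59, limma adjusted p = 0.0229). The *Mfng* call ended with the replicate number as a block, and without Control replicates 1 and 2 (0.0743 and 0.0602) or cKO replicates 1, 2 and 3 (0.0960, 0.0964 and 0.0502). *Rfng* was 20.1 ± 0.917 and 20.4 ± 1.21 FPKM, and the xylosyltransferase gene *Xxylt1* 7.58 ± 0.659 and 9.35 ± 1.0065 FPKM, so that 1 of 8 glycosylation genes rose and 1 fell.

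Of 10 genes for receptor cleavage, *Psenen* alone passed, falling 1.77-fold (log2 fold change -0.82, SE 0.09, limma adjusted p = 0.00441). *Adam10*, which encodes the sheddase of Notch, was 17.3 ± 1.22 and 16.3 ± 3.9962 FPKM. None of 14 genes for ligand and receptor turnover passed, with *Dtx4* at 30.8 ± 1.08 and 27.2 ± 1.62 FPKM and *Nedd4* at 28.6 ± 9.41 and 21.7 ± 0.774 FPKM. Without Control replicate 1 *Nedd4* was called lower (limma adjusted p = 0.0120). None of 8 tested genes for other proposed Notch ligands passed, with *Nov* at 61.6 ± 9.38 and 64.5 ± 1.84 FPKM and *Cntn1* at 52.6 ± 2.99 and 57.5 ± 1.39 FPKM.

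The authors' deposited table gives its own group values and q-values, with no test named. In the authors' deposited table *Dll3* has a q-value of 3.21e-11 and is marked up, with group values of 1.11 FPKM in control and 4.22 FPKM in cKO. The authors' deposited table gives q-values of 0.00582 for *Notch3* and 0.0469 for *Dll1* and marks neither. In the authors' deposited table the q-values of the other 7 genes lie between 0.272 and 1. For *Notch2* the authors' deposited table gives 2.37 FPKM in control and 2.41 FPKM in cKO (q-value 1), where the libraries averaged 2.47 and 1.78 FPKM. For *Psenen* the authors' deposited table gives 6.37 and 4.70 FPKM with a q-value of 0.592, where the libraries averaged 6.84 and 3.83 FPKM and limma called it lower. How the group values of the authors' deposited table were made from the libraries is not stated.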

How the data were processed

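Total RNA of mouse cortex at postnatal day 8 was sequenced in 6 libraries, 3 per genotype. The deposited values are FPKM per gene, made by the authors, per the file headers, although the series-wide table is named for raw counts. The build is mm10, per the submitters' processing notes. The sources used here do not name the aligner, counter or annotation. The q-values the authors deposited have no stated test, and the deposited p-value column was not used. All 6 per-library tables held the values of the series-wide table.

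The test was limma 3.58.1 in R 4.3.3 with its trend and robust options, fitted to log2(FPKM + 0.1) with group as the only term. It covered the 14147 genes that reached 0.5 FPKM in 3 or more libraries. All fold changes use this log2(FPKM + 0.1) scale, so those of low genes are understated. Two-sided p-values were corrected (Benjamini-Hochberg) across these genes, with calls made at an adjusted p under 0.05. The steps were tested on simulated data. The members and gene lists were chosen with earlier results of these data known, so no p-value was adjusted over a list and no list was tested. Depth was read from the value of 1 fragment in genes with 1 transcript in GENCODE M21. The labels do not say that a replicate number marks shared animals, and the libraries were treated as unpaired.

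Genes were named by a rule: the 10 members and *Psenen*, in each pathway list the called genes (at most 6) and the 2 other genes of highest level, in each marker list the 3 of highest level and any marker at 0, and the 3 genes most like each called member. It gave 76 genes, not all of which are reported here. *Gm17276* and *A930024N18Rik* were added as genes that overlap *Notch3* and *Dll1*. *Hes1*, *Hey1*, *Hey2*, *Heyl*, *Rbpj*, the *Maml* genes and *Gad1* were added to describe their lists more fully. Alternatives varied the filter, pseudocount, scaling, variance options, a replicate block and each library left out. Python 3.11.15 with pandas 2.3.3, NumPy 2.4.6 and matplotlib 3.10.9 handled tables and figures.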

Additional observations from a re-analysis of the deposited data

How the results depend on the processing

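Over the 9 tested receptor and ligand genes, 127 of 144 values kept their direction and their side of the threshold. Of these genes, 1 and not 2 rose with median-ratio scaling, with upper-quartile scaling and with no filter on low values, *Dll1* being lost each time. With 1 library left out, 1 to 2 rose and 0 to 2 fell. The direction of the log2 difference turned for *Dll4* with equal sums (0.034) and for *Jag2* with median-ratio scaling (-0.064) and upper-quartile scaling (-0.061). With 1 library left out the log2 difference was -0.053 to 0.020 for *Dll4* and -0.13 to 0.12 for *Jag2*, and none of these values passed. Of the 56 other pathway genes, 3 and not 1 rose with equal sums and 2 with no mean-variance trend. With 1 library left out, 0 to 2 rose and 5 to 7 fell. *Rfng* turned with median-ratio scaling (-0.050) and upper-quartile scaling (-0.048). With 1 library left out it was -0.020 to 0.066, *Adam10* was -0.25 to 0.11 and *Nov* was -0.0041 to 0.20. The cause of these changes was not tested. Over all genes, the 783 calls became 499 with no filter on low values. They became 300, 210 and 813 without Control replicates 1, 2 and 3, and 315, 302 and 621 without cKO replicates 1, 2 and 3.

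With the replicate number as a block, 1 member rose and 1 fell, 0 other pathway genes rose and 6 fell, and 456 genes were called. *Dll1* (adjusted p = 0.0876) and *Mfng* (adjusted p = 0.0635) were then not called. Deviations of same-numbered libraries correlated at 0.06, 0.01 and 0.10. Control replicates 1 and 3 correlated best with the same-numbered cKO library, and Control replicate 2 with cKO replicate 1 (0.02). Values this low cannot decide whether the numbers pair the samples. Depth limits *Notch4* most, at roughly 65 to 133 fragments per library.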
